A study of Mus musculus with 18 samples.

Results

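Chemokine genes encode small secreted proteins that direct the movement of leukocytes. The 10 described here, Ccl2, Ccl5, Ccl6, Ccl9, Ccl24, Cxcl1, Cxcl9, Cxcl10, Cxcl12 and Cxcl16, were taken by name from a table of 54532 mouse genes, of which 27266 had a value above 0 in any mouse. The values come from liver RNA of 18 male C57BL/6 mice (C57BL/6J in the methods) in 3 groups of 6. Normal control (NC) mice were fed chow. The mice were 6 weeks old at housing and entered the groups after 1 week of acclimatization. HFD mice were fed a high-fat diet and later given saline. SZ-A mice were fed the same high-fat diet for 14 weeks and then received SZ-A, the alkaloid fraction of Ramulus Mori (mulberry twig), while the diet went on. NC and HFD mice received no SZ-A. The length of treatment is 6 weeks in the methods but 8 weeks in the series text, and the sources used here do not name the dose for the sequenced mice. The comparisons addressed how hepatic gene expression differs with the diet (HFD against NC) and with SZ-A on the diet (SZ-A against HFD).

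Chemokines bind G protein-coupled receptors on leukocytes and form gradients along which the cells move. In the liver they are made by Kupffer cells, sinusoidal endothelial cells, stellate cells and hepatocytes, many of them after NF-kB or interferon signaling, and they are known for recruiting monocytes, neutrophils and T cells in fatty liver. Cxcl12 is a homeostatic member that is expressed in the resting organ, whereas Ccl2, Cxcl1 and Cxcl10 are typical inducible members.

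Expression was measured as FPKM, the fragments of a gene divided by its length in kilobases and by a library size, so that levels can be compared between genes of unequal length. Each library held 17163191 to 20493907 fragments on genes. Hepatocyte Alb was at a mean of 29448 FPKM in NC mice, 21469 in HFD mice and 24030 in SZ-A mice, and the adipocyte markers Adipoq, Plin1, Lep and Retn summed to at most 1.09 FPKM in any mouse. The title of NC6 says chow while its diet label says high-fat, and it was kept in NC. Its Ccl2 (0.512 FPKM) and Cxcl1 (0.763 FPKM) lay below every HFD mouse. Its Cxcl9 (5.15 FPKM) was the highest of all 18 mice, and its Cxcl10 (2.28 FPKM) lay within the HFD range. The diet of NC6 was not tested, and values of the genes described here cannot decide it. Values without NC6, or without SZ-A5, which stood apart for Ccl2 and Cxcl1, are given where they changed a call or a direction, and for some other results of these members.

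The 10 genes lie on 3 chromosomes of GRCm38. On chromosome 11 stand Cxcl16 (chr11:70453983-70459984, minus strand), Ccl2 (chr11:82035571-82037453, plus strand), Ccl5 (chr11:83525778-83530518, minus), Ccl9 (chr11:83572919-83578636, minus) and Ccl6 (chr11:83587882-83593087, minus). On chromosome 5 stand Cxcl1 (chr5:90891241-90893115, plus), Cxcl9 (chr5:92321347-92328079, minus), Cxcl10 (chr5:92346638-92348889, minus) and Ccl24 (chr5:135569937-135573049, minus). Cxcl12 is alone on chromosome 6 (chr6:117168535-117181367, plus). Cxcl9 and Cxcl10 are 18558 bases apart, and Ccl9 and Ccl6 are 9245 bases apart, with 0 protein-coding genes between them. Ccl2, Ccl6, Cxcl10 and Cxcl16 each overlap 1 annotated gene on the other strand (Gm17268, E230016K23Rik, Art3 and Zmynd15). The overlap is of whole gene spans, and shared exons were not looked up. Whether fragments were counted by strand was not given in the sources used here, so it is not known whether reads of these pairs were mixed.

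Promoter sequences were at hand for 6 of the 10 genes (Cxcl1, Cxcl9, Cxcl10, Cxcl12, Ccl6 and Ccl9) from RefSeq on GRCm38.p6. Shown here are Cxcl1, Cxcl10, Cxcl9 and Cxcl12. Neither Cxcl9 nor Cxcl12 passed the main test in any comparison, while Ccl6, which is not shown, passed it in HFD against NC. Each stretch runs from 220 to 21 bases before the RefSeq start, 5′ to 3′ on the strand of the gene. The positions are chr5:90891025-90891224 (plus) for Cxcl1, chr5:92348910-92349109 (minus) for Cxcl10, chr5:92328100-92328299 (minus) for Cxcl9 and chr6:117168315-117168514 (plus) for Cxcl12. Capitals mark matches to an NF-kB motif, GGNNNTTCC, or an interferon response element core, AAANNGAAA, on either strand.
Cxcl1: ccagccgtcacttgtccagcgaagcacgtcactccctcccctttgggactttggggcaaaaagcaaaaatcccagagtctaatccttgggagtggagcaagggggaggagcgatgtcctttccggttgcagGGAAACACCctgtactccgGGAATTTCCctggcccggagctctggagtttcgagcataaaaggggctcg
Cxcl10: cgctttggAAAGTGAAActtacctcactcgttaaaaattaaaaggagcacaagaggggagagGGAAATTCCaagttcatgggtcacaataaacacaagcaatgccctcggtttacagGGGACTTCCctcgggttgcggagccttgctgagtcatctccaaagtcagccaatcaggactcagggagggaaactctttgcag
Cxcl9: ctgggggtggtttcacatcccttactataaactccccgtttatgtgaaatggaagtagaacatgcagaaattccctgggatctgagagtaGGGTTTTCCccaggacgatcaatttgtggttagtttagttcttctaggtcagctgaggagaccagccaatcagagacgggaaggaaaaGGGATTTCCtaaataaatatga
Cxcl12: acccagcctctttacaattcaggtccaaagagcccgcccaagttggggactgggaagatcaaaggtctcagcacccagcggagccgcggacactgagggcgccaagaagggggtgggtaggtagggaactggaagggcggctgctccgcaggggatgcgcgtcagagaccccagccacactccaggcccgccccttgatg
In the 250 bases before the start, the NF-kB motif had 2 matches each in Cxcl1, Cxcl10 and Cxcl9 and 1 in Ccl9, and 0 in Cxcl12 and Ccl6. The match GGAATTTCC in Cxcl1, 70 to 62 bases before the start, and the match GGAAATTCC in Cxcl10, 158 to 150 bases before it, read the same motif on both strands. Of all 32851 promoters of this length in the table, 15.7% held the motif. The interferon core was found once in Cxcl10 (AAAGTGAAA, 212 to 204 bases before the start) and in 9.37% of all promoters. The TATA motif TATAAA was in Ccl9 and Cxcl9 and in 12.4% of all. The motifs marked in capitals do not overlap each other. A match is a run of letters and was not tested as a binding site.

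Differences are between means of log2(FPKM + 0.1), and the size of a difference at low FPKM depends on the added 0.1. Each comparison was fitted with limma on its 12 mice, p-values were adjusted by Benjamini-Hochberg over the 10216 genes with a mean of at least 1 FPKM, and genes with an adjusted p under 0.05 and more than 1.2-fold change are referred to as called. All 10 chemokine genes passed the filter, Ccl2, Cxcl1 and Cxcl10 with an NC mean under 1 FPKM. These passed it through their HFD and SZ-A values, and such a filter favours calls higher than NC. The shares of all genes called do not correct for this. Of the lists below, Cxcl14 and S100a8 also passed it with an NC mean under 1 FPKM. In bulk liver, fewer cells of a type and less RNA per cell cannot be told apart. The plot of FPKM by mouse gives every value.

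**Figure D1:**
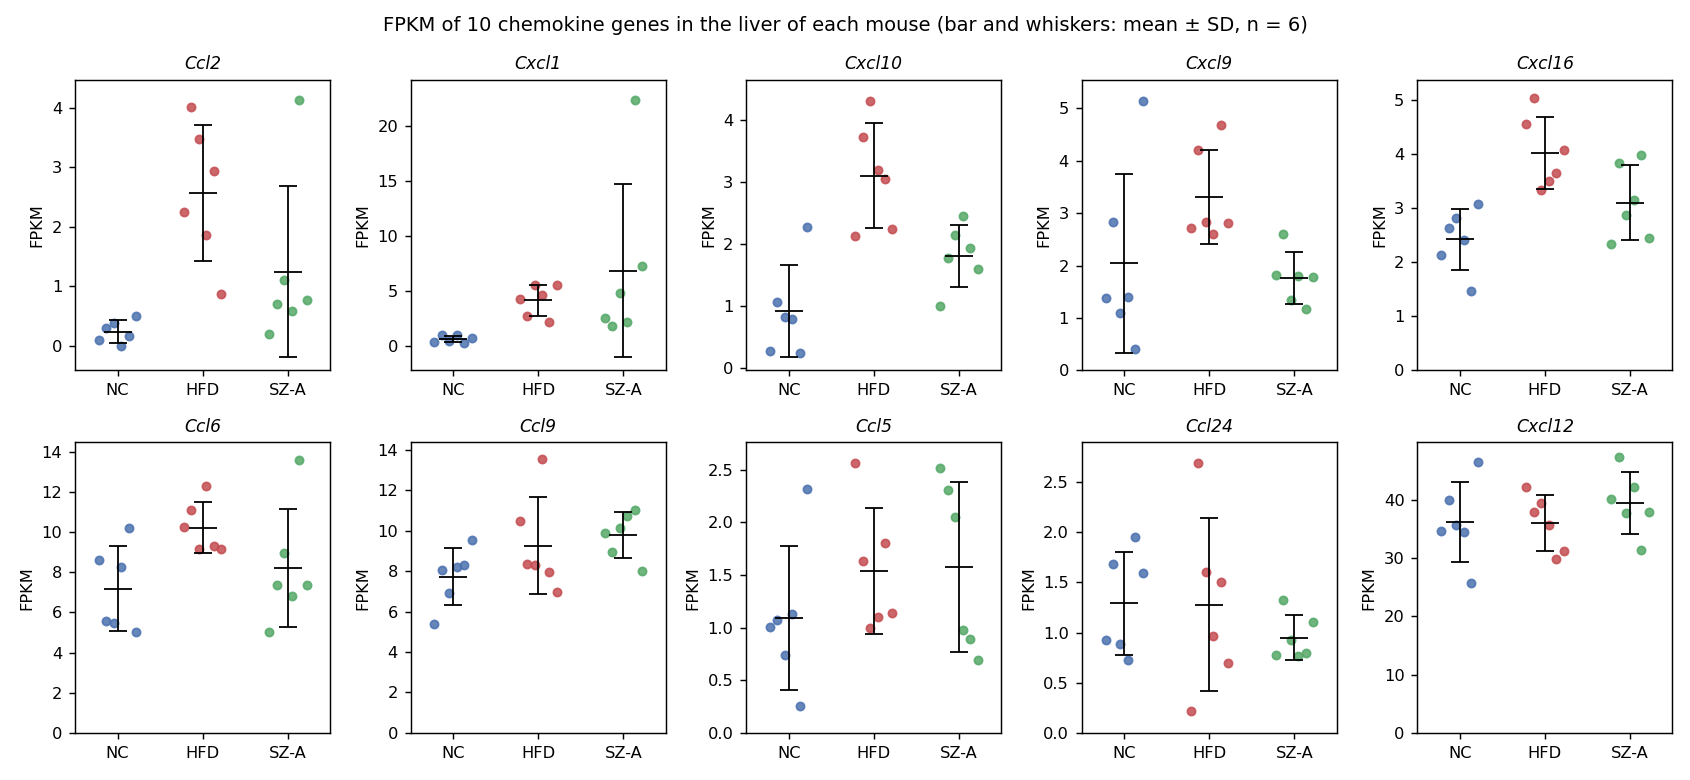
FPKM of the 10 chemokine genes (y axis, linear, a separate scale for each gene) in the 6 NC, 6 HFD and 6 SZ-A mice, with a point for each mouse and a bar with whiskers for the mean ± SD. The HFD mice lie above all NC mice for Ccl2, Cxcl1 and Cxcl16, and SZ-A5 lies apart from the other SZ-A mice for Ccl2 (4.12 FPKM) and Cxcl1 (22.3 FPKM).

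In HFD against NC mice, 5 of the 10 chemokine genes were called and all 5 were higher in HFD (Ccl2, Cxcl1, Cxcl10, Cxcl16 and Ccl6), where 10.7% of all genes tested were called higher. For 3 of the 10 (Ccl2, Cxcl1 and Cxcl16) every HFD mouse was above every NC mouse, which was so for 5.48% of all genes. The median log2 fold change was 0.67 over the 10 genes and -0.03 over all genes tested. The calls over all genes were 1092 higher and 970 lower. With FPKM brought to the same sum in every mouse they were 2100 and 334, the median of all genes was 0.15, and the same 5 chemokine genes were called.

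In SZ-A against HFD mice, 0 of the 10 were called by limma, where 0.147% of all genes tested (15 genes, 8 higher and 7 lower) were called in either direction. At an unadjusted p under 0.05, 4 of the 10 were lower in SZ-A (Cxcl9, Cxcl10, Cxcl16 and Ccl2) and 0 were higher, and 6.09% of all genes were lower at that level. With voom on whole fragments 0 were called as well. With the same sum in every mouse, which moved the median of all genes to -0.15 and the calls to 10 higher and 206 lower, Cxcl9 and Cxcl10 were called, lower in SZ-A. The median log2 fold change over the 10 genes was -0.25, against 0.03 over all genes.

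In SZ-A against NC mice, 1 of the 10 (Cxcl1) was called, higher in SZ-A, where 5.31% of all genes tested were called higher. Cxcl1 was also the 1 member for which every SZ-A mouse was above every NC mouse, as was so for 2.83% of all genes. At an unadjusted p under 0.05, Ccl2, Cxcl10, Ccl9 and Cxcl1 were higher in SZ-A, and 13.6% of all genes were. The median log2 fold change was 0.35 over the 10 genes and -0.01 over all. HFD against NC and SZ-A against NC share the NC mice, and the first 2 comparisons share the HFD mice, so the values are set side by side without a test across them.

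**Figure D2:**
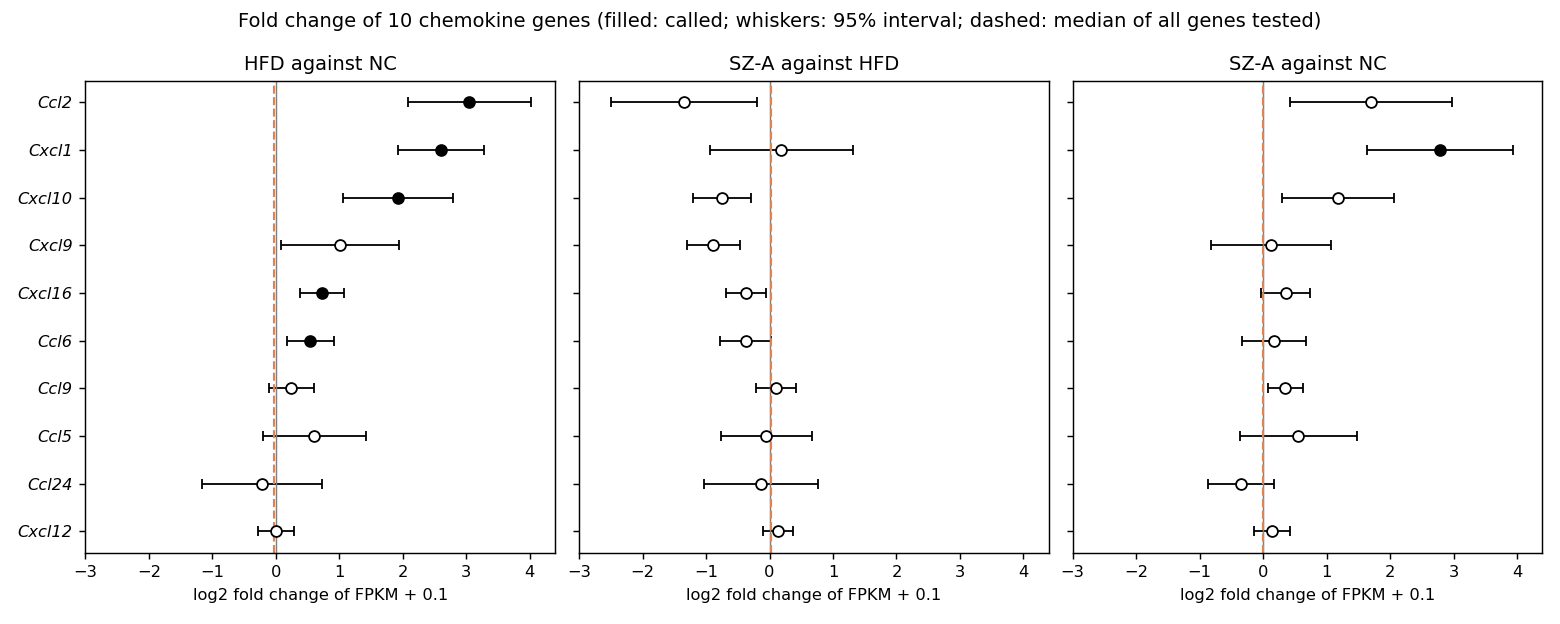
Log2 fold change of FPKM + 0.1 (x axis) of each chemokine gene (y axis) in the 3 comparisons, with limma's 95% interval as whiskers, filled points for called genes and the median of all genes tested as a dashed line. The filled points are Ccl2, Cxcl1, Cxcl10, Cxcl16 and Ccl6 in HFD against NC and Cxcl1 in SZ-A against NC.

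Ccl2 (MCP-1) draws monocytes that carry the receptor CCR2. Its level was 0 to 0.512 FPKM (median 0.233) in NC mice, 0.876 to 4.02 (median 2.59) in HFD mice and 0.197 to 4.12 (median 0.742) in SZ-A mice. These values rest on 0 to 11 fragments in an NC mouse, 21 to 105 in an HFD mouse and 4 to 82 in an SZ-A mouse. NC4 had 0 fragments, which allows a level of up to 0.130 FPKM from counting alone. All HFD mice were above all NC mice. Of the SZ-A mice, 4 were below every HFD mouse, and SZ-A5 was above all of them. Ccl2 rose in HFD against NC by 3.05 on the log2 scale (SE 0.45, limma adjusted p = 0.000639). The fitted size depended on the pseudocount, since it was between 1.46 and 3.93 over the alternatives. In SZ-A against HFD it was -1.35 (SE 0.53, 95% interval -2.498 to -0.20, adjusted p = 0.257), and without SZ-A5 it was -1.78 (adjusted p = 0.0952). In SZ-A against NC it was 1.70 (SE 0.59, adjusted p = 0.0877). Without SZ-A5 it was 1.27 (adjusted p = 0.134), and without SZ-A1, the lowest SZ-A mouse, it was called at 2.03 (adjusted p = 0.0460).

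Cxcl1 (KC) acts on the receptor CXCR2 and draws neutrophils. It was at 0.263 to 0.974 FPKM (median 0.599) in NC mice, 2.22 to 5.55 (median 4.48) in HFD mice and 1.85 to 22.3 (median 3.65) in SZ-A mice. All HFD and all SZ-A mice were above all NC mice. The SZ-A mice ran across the HFD range, with 2 below and 2 above it. Cxcl1 rose by 2.60 in HFD against NC (SE 0.31, limma adjusted p = 0.000174) and by 2.79 in SZ-A against NC (SE 0.53, adjusted p = 0.00727). Between SZ-A and HFD the difference was 0.19 (SE 0.52, 95% interval -0.94 to 1.31, adjusted p = 0.899). Without SZ-A5 it was -0.27 against HFD, and against NC it was 2.33 (adjusted p = 0.00301). The interval against HFD spans both a lower and a higher level in SZ-A, so no direction can be read from it.

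Cxcl10 (IP-10) and Cxcl9 (MIG) are interferon-inducible ligands of CXCR3, a receptor of activated T and NK cells. Cxcl10 was at 0.247 to 2.28 FPKM (median 0.805) in NC mice, 2.12 to 4.31 (median 3.12) in HFD mice and 0.997 to 2.45 (median 1.85) in SZ-A mice. NC6 was the NC mouse that reached into the HFD range, and 4 of 6 HFD mice were above every NC mouse. All 6 SZ-A mice were below the HFD mean, 4 of them below every HFD mouse. Cxcl10 rose by 1.93 in HFD against NC (SE 0.40, limma adjusted p = 0.00487), and by 2.24 without NC6. The difference of SZ-A from HFD was -0.75 (SE 0.21, 95% interval -1.21 to -0.29, adjusted p = 0.144), and with the same FPKM sum in every mouse Cxcl10 was called at -0.92 (adjusted p = 0.0470). In SZ-A against NC it was 1.18 (SE 0.41, adjusted p = 0.0894), and without NC6 it was called at 1.49 (adjusted p = 0.0197).

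Cxcl9 was at 0.409 to 5.15 FPKM (median 1.38) in NC mice, 2.60 to 4.69 (median 2.82) in HFD mice and 1.18 to 2.61 (median 1.78) in SZ-A mice. The highest of all 18 mice was NC6, and the lowest was NC5. All HFD mice were above the NC mean, and 5 of 6 SZ-A mice were below every HFD mouse. In HFD against NC the difference was 1.003 (SE 0.43, limma adjusted p = 0.115), and without NC6 Cxcl9 was called at 1.34 (adjusted p = 0.0185). In SZ-A against HFD it was -0.88 (SE 0.19, 95% interval -1.30 to -0.46, adjusted p = 0.0880), the smallest p among the 10 and rank 63 among all genes by p. Cxcl9 was called in that comparison, lower in SZ-A, with the same FPKM sum in every mouse (-1.05, adjusted p = 0.0298), with sample weights (-0.89, adjusted p = 0.0298) and without SZ-A2 (-1.001, adjusted p = 0.0377). In SZ-A against NC it was 0.12 (SE 0.44, adjusted p = 0.902).

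Cxcl16 is made as a membrane protein that takes up oxidized lipoprotein, and its shed form is a ligand of CXCR6. It was at 1.47 to 3.07 FPKM (median 2.53) in NC mice, 3.34 to 5.04 (median 3.86) in HFD mice and 2.34 to 3.98 (median 3.01) in SZ-A mice. The HFD mice were above all NC mice, and 4 of 6 SZ-A mice were below every HFD mouse. Cxcl16 rose by 0.73 in HFD against NC (SE 0.16, limma adjusted p = 0.00695), a fold of 1.66. Its differences were -0.38 in SZ-A against HFD (SE 0.15, 95% interval -0.69 to -0.06, adjusted p = 0.250) and 0.35 in SZ-A against NC (SE 0.18, adjusted p = 0.238).

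Ccl6 and Ccl9 are neighbouring CC genes of rodents whose products bind CCR1. Ccl6 was at 5.02 to 10.2 FPKM (median 6.92) in NC mice, 9.15 to 12.3 (median 9.77) in HFD mice and 5.03 to 13.6 (median 7.36) in SZ-A mice. All HFD mice were above the NC mean and 3 were above every NC mouse. Of the SZ-A mice, 5 were below every HFD mouse and SZ-A5 was above all of them. Ccl6 rose by 0.54 in HFD against NC (SE 0.17, limma adjusted p = 0.0367). That call was lost without NC2, NC3, NC6, HFD1, HFD2 or HFD4, with differences of 0.45 to 0.54 and adjusted p = 0.0631 to 0.0786. In SZ-A against HFD the difference was -0.37 (SE 0.19, 95% interval -0.77 to 0.03, adjusted p = 0.373), and without SZ-A5 it was -0.53 (adjusted p = 0.101). In SZ-A against NC it was 0.17 (SE 0.23, adjusted p = 0.698), and 0.01 without SZ-A5.

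Ccl9 was at 5.38 to 9.55 FPKM (median 8.13) in NC mice, 6.95 to 13.5 (median 8.35) in HFD mice and 8.02 to 11.05 (median 10.01) in SZ-A mice. The 3 groups overlapped, although all 6 SZ-A mice were above the NC mean. The differences were 0.25 in HFD against NC (SE 0.16, limma adjusted p = 0.314), 0.11 in SZ-A against HFD (SE 0.14, adjusted p = 0.781) and 0.35 in SZ-A against NC (SE 0.13, adjusted p = 0.102). Ccl9 was not called in any of the 3 comparisons under any of the alternatives. In HFD against NC its 95% interval (-0.11 to 0.60) overlapped that of its neighbour Ccl6 (0.18 to 0.91). Ccl6 and Ccl9 were not tested against each other.

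Ccl5 (RANTES) is a product of T cells, NK cells and platelets that draws T cells and monocytes. It was at 0.257 to 2.32 FPKM (median 1.04) in NC mice, 0.9998 to 2.56 (median 1.38) in HFD mice and 0.689 to 2.51 (median 1.52) in SZ-A mice. The groups overlapped throughout, and the SZ-A mice lay in 2 sets of 3, from 0.689 to 0.979 and from 2.05 to 2.51 FPKM. The differences were 0.60 in HFD against NC (SE 0.37, limma adjusted p = 0.275), -0.05 in SZ-A against HFD (SE 0.33, adjusted p = 0.960) and 0.55 in SZ-A against NC (SE 0.43, adjusted p = 0.456). Without NC6 the first and last were 0.85 and 0.80 (adjusted p = 0.0934 and 0.241), and without SZ-A5 the difference of SZ-A from HFD was 0.07.

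Ccl24 (eotaxin-2) binds CCR3 and draws eosinophils. It was at 0.724 to 1.96 FPKM (median 1.26) in NC mice, 0.219 to 2.69 (median 1.24) in HFD mice and 0.768 to 1.32 (median 0.863) in SZ-A mice. The HFD mice held both the lowest value (HFD1) and the highest (HFD2) of all 18. The differences were -0.22 in HFD against NC (SE 0.44, 95% interval -1.17 to 0.73, limma adjusted p = 0.761), -0.13 in SZ-A against HFD (SE 0.41, adjusted p = 0.915) and -0.35 in SZ-A against NC (SE 0.24, adjusted p = 0.396). Its sign in HFD against NC turned without HFD1 (0.15), and in SZ-A against HFD it turned without HFD2 (0.13).

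Cxcl12 (SDF-1) is the ligand of CXCR4 and retains leukocytes and progenitor cells in tissue. It was at 25.7 to 46.5 FPKM (median 35.1) in NC mice, 29.9 to 42.1 (median 36.7) in HFD mice and 31.4 to 47.3 (median 39.0) in SZ-A mice. The ranges of the groups lay over each other. The differences were 0.01 in HFD against NC (SE 0.13, 95% interval -0.28 to 0.29, limma adjusted p = 0.982), 0.13 in SZ-A against HFD (SE 0.11, 95% interval -0.10 to 0.37, adjusted p = 0.611) and 0.14 in SZ-A against NC (SE 0.13, 95% interval -0.15 to 0.42, adjusted p = 0.566).

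The order of the levels also differed between the groups. Cxcl12 was the highest of the 10 in every group and stood apart from the next gene, without overlap between mice. In NC mice Ccl9 and Ccl6 came next and did not differ beyond their spread, and the ranges of the 7 genes below them overlapped from neighbour to neighbour, down to Ccl2 at 0.243 ± 0.190 FPKM (SD, n = 6). In HFD mice Ccl6 and Ccl9 again came next and stood apart from Cxcl1, which was at place 4 after place 9 in NC mice, at 4.16 ± 1.41 FPKM (SD, n = 6). Ccl24 was lowest at 1.28 ± 0.860 FPKM, and its range overlapped that of Ccl5. In SZ-A mice Cxcl1 was at place 4, with 6.82 ± 7.85 FPKM (3.72 ± 2.27 over the 5 mice without SZ-A5), and every neighbouring pair below Cxcl12 overlapped. Summed over the 10 genes, the level was 59.7 ± 9.74 FPKM in NC mice, 75.5 ± 7.60 in HFD mice and 74.7 ± 9.03 in SZ-A mice (SD, n = 6). Cxcl12 made up 60.4% ± 4.35 of that sum in NC mice, 47.6% ± 2.81 in HFD mice and 53.7% ± 9.97 in SZ-A mice. Without Cxcl12 the sum was 19.5 to 30.3 FPKM in NC and 33.5 to 43.7 in HFD mice, which did not overlap, and 26.1 to 59.9 in SZ-A mice, with SZ-A5 the highest.

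The mice of a group varied together for some members, as the plot of deviations from the group means shows. NC6 was the highest NC mouse for 7 of the 10 genes (Ccl2, Ccl5, Ccl9, Cxcl9, Cxcl10, Cxcl12 and Cxcl16) and the lowest for Ccl6. NC5 was the lowest for 6 (Ccl5, Cxcl1, Cxcl9, Cxcl10, Cxcl12 and Cxcl16) and the highest for Ccl6 and Ccl24. SZ-A5 was the highest SZ-A mouse for 5 (Ccl2, Ccl6, Ccl9, Cxcl1 and Cxcl16) and the lowest for Cxcl9 and Cxcl12. NC6 also had the highest summed T and NK cell markers of the NC mice (3.15 FPKM, against a lowest of 0.724 in NC5) and the highest summed macrophage and Kupffer cell markers (414.7 FPKM, against 233.9 in NC5). Some other lists ran otherwise, with monocyte (4.64 FPKM) and hepatocyte markers highest in NC5 and neutrophil markers (6.62 FPKM) highest in NC1. NC5 also had the largest FPKM sum over all genes of the 18 mice (489187). For how many of all genes these mice were extreme was not counted. SZ-A5 had the highest summed macrophage and Kupffer cell (509.9 FPKM), monocyte (9.14), neutrophil (18.1) and cholangiocyte (12.3) markers of the SZ-A mice. Its summed B cell, sinusoidal endothelial and hepatocyte markers were the lowest of that group. The part of these markers in the chemokine values was not tested.

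**Figure D3:**
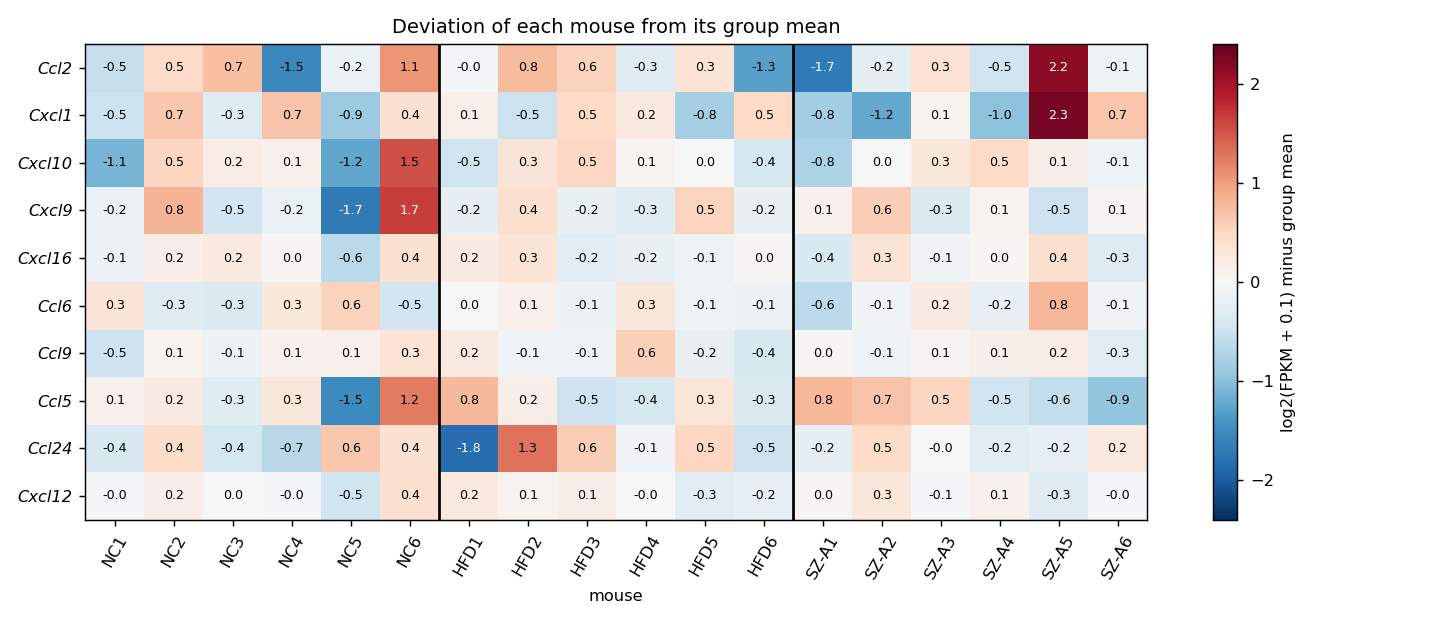
Deviation of each mouse (x axis) from the mean of its group in log2(FPKM + 0.1) for each chemokine gene (y axis), with red above and blue below the group mean and black lines between the NC, HFD and SZ-A mice. NC6 is above its group mean for 9 of 10 genes and NC5 below for 7, and SZ-A5 is 2.15 above it for Ccl2 and 2.28 for Cxcl1.

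The likeness of patterns was measured as the Pearson correlation of log2(FPKM + 0.1), centred on the group means, over the 18 mice, and is given without a test because the genes were picked as the most alike of 10216. Of the pairs among the 10, Cxcl9 and Cxcl12 were most alike (r = 0.72, Spearman's rho = 0.58), followed by Ccl5 and Cxcl9 (r = 0.71, rho = 0.54). Both values rest largely on NC5 and NC6, and without them they were 0.35 and 0.34. The neighbours Cxcl9 and Cxcl10 had r = 0.69 (rho = 0.34), which was 0.19 without NC5 and NC6, and the neighbours Ccl6 and Ccl9 had r = 0.14 (rho = 0.15). Ccl6 ran against Cxcl9 (r = -0.61, rho = -0.54; -0.45 without SZ-A5 and NC5). Ccl2 and Cxcl1 had r = 0.41 (rho = 0.29), which was -0.09 without SZ-A5 and SZ-A1.

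Among all genes, the closest to Cxcl9 were Gbp2, an interferon-inducible GTPase (r = 0.93, rho = 0.66), Acat3 (0.91) and Nufip2 (0.89). Those closest to Cxcl10 were Rsad2, an interferon-inducible antiviral enzyme (r = 0.86, rho = 0.81), Hk3 (0.83) and Cmpk2 (0.82), which neighbours Rsad2. Without the 2 mice farthest from the median, the values for Gbp2 and Rsad2 were 0.745 and 0.818. Closest to Ccl2 were Csf2rb, a cytokine receptor chain of myeloid cells (r = 0.86, rho = 0.78), Lgals9 (0.84) and Cyr61 (0.80), and closest to Cxcl1 were Kdm4a (r = 0.89, rho = 0.85), Traf4 (0.86) and Fgf21 (0.84). Without the 2 farthest mice, SZ-A5 among them, these were 0.705 for Csf2rb and 0.735 for Kdm4a. For Cxcl16 they were Fscn1, Tmem165 and Iqgap1 (r = 0.85 each), for Ccl6 Alg1, Gars and Agap2 (0.85 to 0.87), for Ccl9 Tapbp, Rdh5 and Card10 (0.74 to 0.83) and for Ccl5 Tnrc6b, Cdk13 and H2-DMb1 (0.84 to 0.87). For Ccl24 they were Gm12254, Hibadh and Cep63 (0.77 to 0.84), and for Cxcl12 Dag1, Mbtd1 and Sec14l2 (0.89 to 0.91). The points share the libraries and their depth.

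Of the other chemokines, 28 symbols (32 gene entries) were looked up and 4 entries passed the filter. Cxcl14 was called, higher in HFD against NC (mean 0.797, 2.29 and 1.56 FPKM in NC, HFD and SZ-A, log2 difference 1.24, limma adjusted p = 0.011). The share of all genes called higher there was 10.7%. Cxcl13, the B cell chemokine, was at 3.81, 2.02 and 2.12 FPKM (adjusted p = 0.157), Pf4 of platelets at 0.872, 1.62 and 1.02 (adjusted p = 0.073) and Ccl27a at 2.13, 2.10 and 2.03 FPKM. The neighbours of Ccl2 and Cxcl1 in the genome were below the filter and were not tested. Ccl7 had means of 0.112, 0.825 and 0.328 FPKM in NC, HFD and SZ-A mice, and Cxcl2 had 0.039, 0.318 and 0.160.

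The receptors of these ligands were rare in liver RNA. Of 17 chemokine receptor genes, 0 reached the filter and none was tested. Their summed FPKM was 1.71 to 4.34 (median 2.42) in NC mice, 3.12 to 7.88 (median 4.42) in HFD mice and 1.74 to 4.28 (median 2.41) in SZ-A mice, with NC6 the highest NC mouse. Cxcr4, the receptor of Cxcl12, had means of 0.882, 1.39 and 0.686 FPKM in NC, HFD and SZ-A mice, and Ccr2, that of Ccl2, had 0.183, 0.766 and 0.300. Cxcr3, the receptor of Cxcl9 and Cxcl10, was at 0.356, 0.333 and 0.179 FPKM, and Cxcr2, that of Cxcl1, at 0.064, 0.177 and 0.164. Of 5 atypical receptors, which take up chemokines without G protein signaling, Ackr2 was the 1 tested. Ackr2, a scavenger of inflammatory CC chemokines, was lower in HFD than in NC mice (0.974 against 1.80 FPKM, log2 difference -0.79, limma adjusted p = 0.00325) and lower in SZ-A than in NC mice (0.778 FPKM, -1.09, adjusted p = 0.00205). The shares of all genes called lower in these comparisons were 9.49% and 4.3%. Ackr2 averaged at least 1 FPKM in NC mice only, so it passed the filter through the group where it was high. Between SZ-A and HFD its difference was -0.30 (limma adjusted p = 0.262).

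Of 8 proteases that cleave or shed chemokines, 7 were tested, and in HFD against NC 3 were called higher and 1 lower, where 10.7% and 9.49% of all genes were, with a list median of 0.30. Mmp12, a macrophage elastase, was at 0.118 FPKM in NC and 2.46 in HFD mice (log2 difference 3.38), Mmp2 at 0.719 and 2.05 (1.33), and Adam10, a sheddase of Cxcl16, at 6.59 and 8.08 (0.30, limma adjusted p = 0.028). In SZ-A mice Mmp12 and Mmp2 averaged 0.557 and 0.998 FPKM. They passed the filter of 1 FPKM only through HFD, where they were high, so the filter favoured their calls. Mmp14 was lower in HFD (9.06 against 6.26 FPKM, -0.57, adjusted p = 0.038). Of the 7, 0 were called by limma in SZ-A against HFD, and 3 had an unadjusted p under 0.05, as 14.8% of all genes had.

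Of 12 NF-kB regulators, 9 were tested and Nfkb2 was called higher in HFD (2.93 and 4.60 FPKM, log2 difference 0.64, limma adjusted p = 0.003), a share near the 10.7% of all genes. Not called were Nfkbia (-0.11), Rela (-0.10), Tnfrsf1a (0.14), Nfkb1 (0.19), Il1b (0.23), Bcl3 (0.415), Nfkbiz (0.48) and Il1r1 (0.96). In all 7 of 9 were higher in HFD, and 4 of 9 had an unadjusted p under 0.05, as 34.8% of all genes had in either direction. Tnf, Relb and Tnfaip3 were below the filter, with means of 0.033, 0.654 and 0.634 FPKM in NC and 0.234, 1.18 and 1.06 in HFD mice. The median of the 9 tested was 0.23 in HFD against NC and -0.0011 in SZ-A against HFD. In the latter 0 were called by limma, with 1 of 9 at an unadjusted p under 0.05 (14.8% of all genes).

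Markers of cells that make or follow chemokines are given beside these values, and their part in them was not tested. Of 12 macrophage and Kupffer cell markers, 7 were called higher in HFD against NC, where 10.7% of all genes were. Among them were Cd68 (5.77 and 14.3 FPKM), Lyz2 (56.3 and 114.0), Cd5l (49.5 and 84.8) and Adgre1 (6.19 and 10.7). Clec4f, Vsig4, Timd4, Csf1r and Marco were not called (log2 differences 0.30, 0.25, 0.01, 0.46 and 1.27). Of the 12, Cd68 was called in SZ-A against HFD, lower in SZ-A (9.20 FPKM, log2 difference -0.64), where 0.0685% of all genes were called lower. The summed level of the 12 was 233.9 to 414.7 FPKM in NC mice, 393.6 to 629.9 in HFD mice and 360.7 to 509.9 in SZ-A mice.

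Of 6 neutrophil markers 3 were tested, and S100a8 and S100a9 were called higher in HFD against NC (log2 differences 2.25 and 2.29) and in SZ-A against NC (1.69 and 1.79). The shares of all genes called higher in these comparisons were 10.7% and 5.31%. The neutrophil markers summed to 1.48 to 6.62 FPKM in NC mice, 5.97 to 20.6 in HFD mice and 4.61 to 18.1 in SZ-A mice, with Ly6g at 0 in all NC and all SZ-A mice. Plac8 was the 1 of 7 monocyte markers tested and was called higher in HFD against NC (2.68 and 5.03 FPKM). The monocyte markers summed to 2.54 to 4.64 FPKM in NC mice, 6.29 to 13.2 in HFD mice and 3.80 to 9.14 in SZ-A mice. The 9 T and NK cell markers and the 4 B cell markers stayed below the filter, with T and NK sums of 0.724 to 3.15 FPKM in NC mice, 1.28 to 2.55 in HFD mice and 0.956 to 3.66 in SZ-A mice.

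Of 8 stellate cell markers, 4 (Colec11, Reln, Lrat and Pdgfrb) were called higher in HFD against NC, and of 8 sinusoidal endothelial markers 1 (Lyve1, 4.82 and 9.44 FPKM), where 10.7% of all genes were. Of 6 hepatocyte markers, Apoa1 and Cps1 were called lower in HFD (log2 differences -0.91 and -1.40), where 9.49% of all genes were. Between SZ-A and HFD mice 0 of the stellate, endothelial and hepatocyte markers were called by limma, where 0.147% of all genes were. In each list 2 had an unadjusted p under 0.05, as 14.8% of all genes had. Those 2 were lower in SZ-A for the stellate and endothelial lists and higher for the hepatocyte list. Sox9 was the 1 of 4 cholangiocyte markers tested and was called lower in SZ-A against NC (-0.62), where 4.3% of all genes were. The adipocyte markers were not tested.

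**Figure D4:**
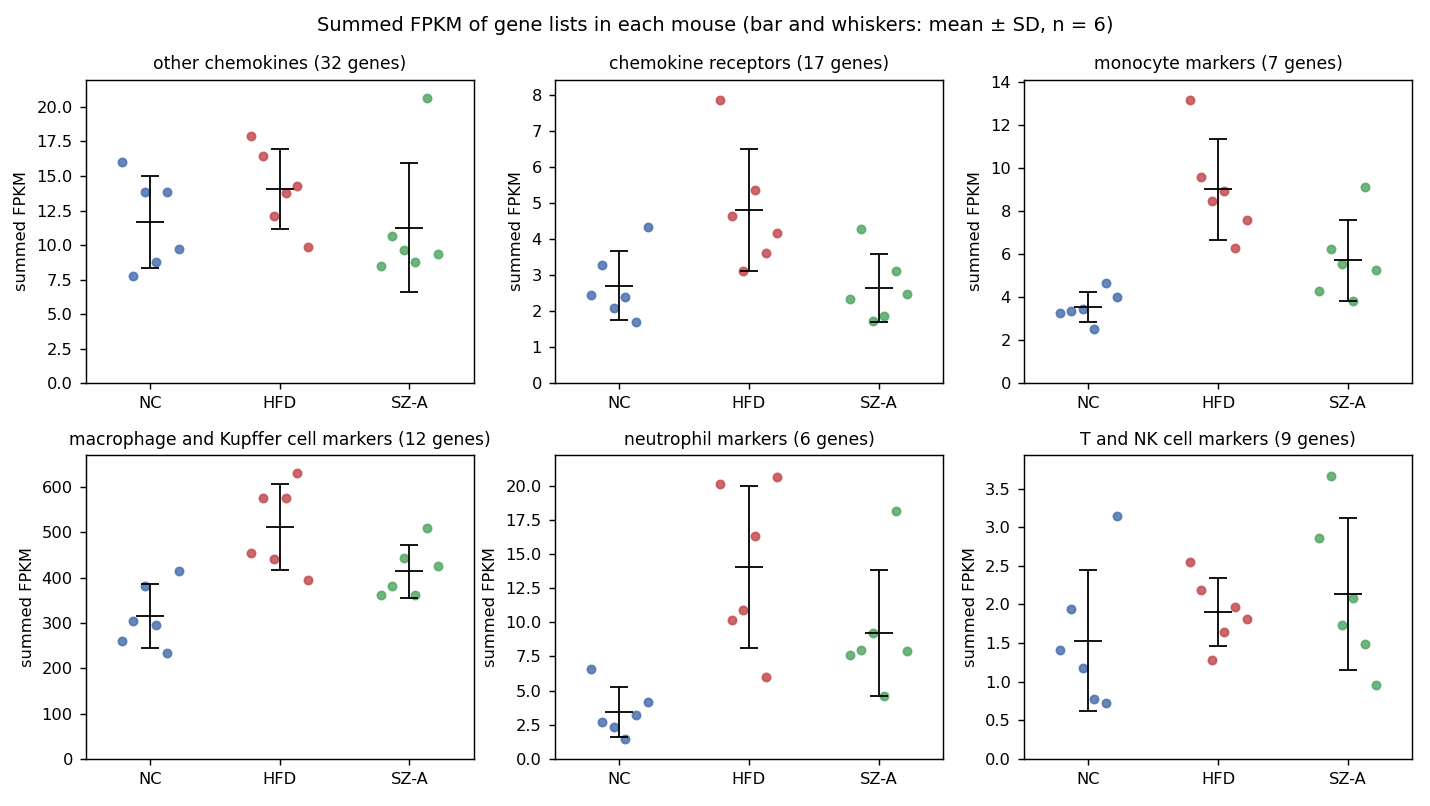
Summed FPKM (y axis, from 0) of 6 gene lists in the 6 NC, 6 HFD and 6 SZ-A mice, with a point for each mouse and a bar with whiskers for the mean ± SD. The 17 chemokine receptors sum to a median of 2.42 in the NC, 4.42 in the HFD and 2.41 in the SZ-A mice, and SZ-A5 is the highest SZ-A mouse for other chemokines (20.6), macrophage and Kupffer cell markers (509.9) and neutrophil markers (18.1).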

How the data were processed

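The authors selected poly-A RNA from 18 livers and sequenced it as 150 bp paired ends on an Illumina NovaSeq. Reads were aligned to GRCm38 (mm10) with HISAT2 2.0.5 and counted with featureCounts 1.5.0-p3, per the submitters' processing notes, and the authors deposited FPKM for each gene. FPKM times gene length gave whole fragments for 100% of the values within 0.05 of a fragment, with 17163191 to 20493907 fragments per mouse. The library size behind the FPKM was 0.933 to 1.02 times that total in NC mice, 0.998 to 1.14 in HFD mice and 0.972 to 1.05 in SZ-A mice. The scaling thus differed between the groups. Its part in the calls that changed with a common FPKM sum was not tested. Counting error is part of the spread between mice. No 2 mice agreed within sampling noise (chi-square of at least 20.3 per degree of freedom).

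Groups were taken from the titles. Log2(FPKM + 0.1) was tested with limma 3.58.1 in R 4.3.3 (lmFit, and eBayes with an intensity trend), each comparison on its own 2 groups without covariates, for 10216 genes averaging at least 1 FPKM. The code was tested on simulated data. Alternatives were other pseudocounts, filters and scalings, all mice in a single fit, sample weights, no trend in eBayes, a replicate block, no fold change threshold, voom on whole fragments and each mouse left out. The authors' own differential test was not repeated. Named are all 10 chemokine genes, up to 4 genes of each list (called genes, or else those with the smallest p) and the 3 genes most like each member. Ccl7, Cxcl2, the receptors, the uncalled macrophage, Kupffer cell and NF-kB genes, and Alb were named after their values were seen. The members and the lists were chosen with earlier results of these data known. Promoters were matched by symbol. Some genes of the chemokine system are not reported here. Python 3.11.15, pandas 2.3.3, scipy 1.17.1 and matplotlib 3.10.9 were used for the rest.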

Additional observations from a re-analysis of the deposited data

Results flagged for a closer look

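The mouse SZ-A5 stood apart from the other 5 SZ-A mice for 2 of the 10 genes. Its Ccl2 was 4.122 FPKM, with the next highest SZ-A mouse at 1.107 (gap 0.768 of the range), and its Cxcl1 was 22.3 FPKM, with the next at 7.23 (gap 0.737). Both gaps are above the 95% critical value of Dixon's test for 6 mice. Of 30 gene and group combinations 2 passed it, and chance flags about 1 group in 20. The cause was not tested.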

How the results depend on the processing

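With a mean of at least 5 FPKM only Ccl6, Ccl9 and Cxcl12 were tested. The number of chemokine genes called was then 1 in HFD against NC (1271 genes in all) and 0 in SZ-A against NC. In SZ-A against HFD it was 2 with the same FPKM sum in every mouse and 1 with sample weights, and in SZ-A against NC it was 3 with all 18 mice in a single fit (Ccl2, Cxcl1 and Cxcl10). Genes called in SZ-A against HFD were 0 without a filter, 26 at a mean of at least 5 FPKM, 216 with a common sum, 35 with all mice in a single fit, 233 with sample weights and 27 with voom. In SZ-A against NC they were 564 without a filter and 1682 with sample weights. Without a filter, or with all mice in a single fit, Ccl6 was no longer called in HFD against NC (adjusted p = 0.0982 and 0.0581).

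Leaving out each mouse gave 4 to 5, 0 to 1 and 1 to 2 chemokine genes called, and 1646 to 2145, 2 to 49 and 601 to 1179 genes, in HFD against NC, SZ-A against HFD and SZ-A against NC. The log2 difference then ran over 0 for Cxcl12 (-0.0883 to 0.0828) and Ccl24 (-0.48 to 0.15) in HFD against NC, for Ccl5 (-0.21 to 0.13), Ccl24 (-0.49 to 0.13) and Cxcl1 (-0.27 to 0.43) in SZ-A against HFD, and for Cxcl9 (-0.22 to 0.45) in SZ-A against NC. It also changed sign with sample weights for Cxcl12 in HFD against NC (-0.0195), Ccl5 in SZ-A against HFD (0.0494) and Cxcl9 in SZ-A against NC (-0.12), and with a common sum for Ccl9 (-0.0715) and Cxcl12 (-0.0463) in SZ-A against HFD. None of these was a call. The cause of these changes was not tested.

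Deviations of same-numbered mice correlated at -0.12 to 0.10, -0.07 to 0.29 and -0.04 to 0.11 in the 3 comparisons. Mice of unlike number were not correlated, so these values cannot decide whether the replicate numbers pair the mice. With the replicate block 5, 0 and 1 chemokine genes and 1647, 0 and 922 genes were called. Ccl2, Cxcl1, Cxcl10 and Cxcl16 in HFD against NC, and Cxcl1 in SZ-A against NC, were called under all 23 alternatives in which they were tested. Depth limits Ccl2 most, with at most 11 fragments in an NC mouse.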
